A study of Mus musculus with 2 samples.

Results

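The genes described here carry iron, heme and hemoglobin in mouse liver. They are transferrin (Trf) and its receptor (Tfrc), the iron importers Slc11a2 and Slc39a14, the ferritin chains Ftl1 and Fth1, the exporter Slc40a1, and the plasma proteins ceruloplasmin (Cp), haptoglobin (Hp) and hemopexin (Hpx). The 10 genes were taken from a list of gene symbols, with no threshold on their values, out of 43346 Ensembl genes in the tables, and they have 68 of the 103639 deposited transcripts. The liver came from 1 female adult C57BL/6J mouse, 10 weeks old. PolyA RNA was sequenced as 2 libraries, library 2 and library 1, which carry technical replicate numbers of the same biological replicate. Library 2 was made in May 2015 and library 1 belongs to the earlier part of the work. There is 1 animal and no second condition, so every comparison is between these libraries, and no p-value is given. Library, date and handling cannot be told apart.

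Iron leaves the gut bound to plasma transferrin, which cells take up through the transferrin receptor. Liver cells also import iron that is not bound to transferrin, keep it in ferritin shells built of heavy and light chains, and release it through ferroportin, the product of Slc40a1. Hepatocytes secrete transferrin, ceruloplasmin, haptoglobin and hemopexin, and the last pair clear free hemoglobin and heme from plasma. Several mRNAs of these proteins hold an iron responsive element, a short hairpin that iron regulatory proteins bind when iron is scarce. In a 5′ untranslated region the bound hairpin slows translation, and in a 3′ untranslated region it protects the mRNA from decay.

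The hairpins are shown because they divide the 10 genes into those with and those without the motif. Each line gives 30 bases of mRNA sense from the GENCODE M21 transcript (GRCm38, the assembly also called mm10), 5′ to 3′, with the loop in capitals.
Fth1, 5′ untranslated region, chr19:9982732-9982761, plus strand: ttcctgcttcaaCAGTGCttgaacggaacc
Ftl1, 5′ untranslated region, chr7:45459778-45459807, minus strand: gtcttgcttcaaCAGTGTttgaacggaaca
Slc40a1, 5′ untranslated region, chr1:45925464-45925493, minus strand: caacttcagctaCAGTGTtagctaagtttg
Tfrc, 3′ untranslated region, chr16:32631219-32631248, plus strand: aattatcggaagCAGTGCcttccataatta
Tfrc, 3′ untranslated region, chr16:32631598-32631627, plus strand: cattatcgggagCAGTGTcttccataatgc
Tfrc, 3′ untranslated region, chr16:32631663-32631692, plus strand: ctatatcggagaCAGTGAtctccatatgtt
Tfrc, 3′ untranslated region, chr16:32631710-32631739, plus strand: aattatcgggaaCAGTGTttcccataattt
Slc11a2, 3′ untranslated region, stem not fully paired, chr15:100395152-100395181, minus strand: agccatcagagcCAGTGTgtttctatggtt

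The search was for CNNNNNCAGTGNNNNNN on the sense strand of each transcript, with the 5 bases before the loop paired to the 5 after it and G-T pairs allowed. This motif occurred in 682 of 101510 deposited transcripts with an M21 sequence, or 0.672%, and in 455 of 47459 protein-coding ones, or 0.959%. Of the 10 genes, Fth1, Ftl1 and Slc40a1 held 1 each in the 5′ untranslated region and Tfrc held 4 in the 3′ untranslated region. The Slc11a2 hairpin matched only looser forms, either with 1 extra base on the 3′ side of the stem, found in 2196 transcripts or 2.16%, or with 1 mismatched pair, found in 5630 transcripts or 5.55%. The ferritin windows shared 26 of 30 bases, and the Tfrc windows shared 18 to 25 of 30 with each other. The motif was not found in M21 transcripts of Trf, Slc39a14, Cp, Hp or Hpx, and the 4 Ftl1 transcripts without an M21 sequence were not searched.

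The expected counts, which are the authors' estimated read or fragment counts, summed to 19525500 in library 2 and 23309905 in library 1. The libraries stood far apart as a whole. TPM is the length-scaled abundance, which has the same total in each library, and mitochondrially encoded RNA made up 14.9% of it in library 2 against 40.7% in library 1. Together with 9 other genes that largely copy mitochondrial sequence, it made up 25.3% in library 2 and 61.8% in library 1. These copies are left out of the nuclear protein-coding genes below. The marker lists showed liver tissue: all 10 hepatocyte markers reached 1 TPM in both libraries, with a summed level of 80627 TPM in library 2 and 32944 TPM in library 1. The 12 Kupffer cell and macrophage markers summed to 316 TPM in library 2, with 12 at or above 1 TPM, and to 80.2 TPM in library 1, with 11. The 10 erythroid markers summed to 2066 TPM in library 2 and 138 TPM in library 1, nearly all of it from globin mRNA. Of the 10, 6 reached 1 TPM in library 2 and 4 in library 1. Beside the globins, Alas2 had 13.8 TPM in library 2 and 3.33 TPM in library 1, and Klf1, an erythroid transcription factor, had 3.08 TPM in library 2 and 0.39 TPM in library 1. The erythroid membrane genes Slc4a1, Epb42 and Ermap were below 1 TPM in both. Sinusoidal endothelium markers summed to 149 TPM in library 2 and 75.5 TPM in library 1, stellate cell markers to 177 TPM in library 2 and 167 TPM in library 1, and cholangiocyte markers to 63.2 TPM in library 2 and 47.8 TPM in library 1. Lymphocyte markers summed to 5.21 TPM in library 2 and 3.76 TPM in library 1, and neutrophil markers to 3.72 TPM in library 2 and 3.29 TPM in library 1. The part of these differences in the results below was not tested. Markers within a list also differed. Of the 12 Kupffer cell and macrophage markers, Vsig4 alone had a lower TPM in library 2, at 28.6 TPM against 38.2 TPM in library 1. C1qb had 49.9 TPM in library 2 and 2.08 TPM in library 1. GC content was 44.6% for Vsig4 and 57.4% for C1qb. In bulk tissue, fewer cells of a type, less RNA per cell and a difference in library preparation cannot be told apart.

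All 10 genes were detected at 1 TPM or more in both libraries. Together they held 2.07% of TPM in library 2 and 0.825% in library 1, a mean of 1.45% ± 0.880 (SD, n = 2 libraries). Of TPM on nuclear protein-coding genes alone they held 2.81% in library 2 and 2.20% in library 1. By expected count they held 2.05% of library 2 (95% exact interval 2.046 to 2.059%) and 0.695% of library 1 (0.691 to 0.698%). These intervals cover counting error only, and the gap between the libraries was many times wider. Trf alone made up 51.7% of the set's TPM in library 2 and 74.7% in library 1. By expected count it held 234800 of the set's 400709 in library 2 and 83946 of 161923 in library 1. That share was the larger in library 2, so its direction depended on the measure.

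**Figure D1:**
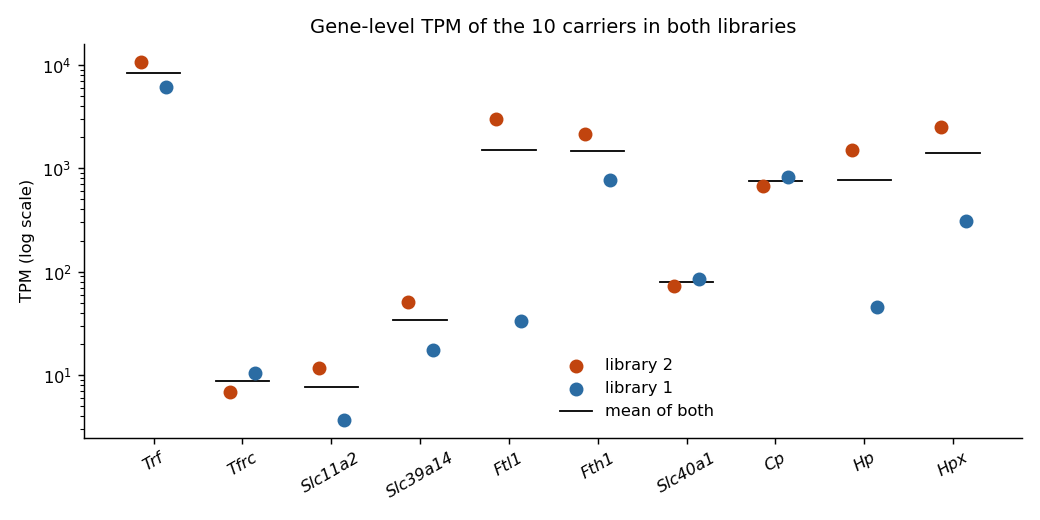
Gene-level TPM of the 10 carriers on a log axis, with library 2 as the left point and library 1 as the right point of each pair, and the mean of both as a line. Ftl1, Hp and Hpx lie far apart, at 2993, 1512 and 2524 TPM in library 2 against 33.6, 45.5 and 307 TPM in library 1, while Slc40a1 and Cp lie close together.

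By gene-level TPM, transferrin was the most abundant carrier by a wide margin. Trf (ENSMUSG00000032554.11, chr9:103204001-103230444, minus strand) had 10699 TPM in library 2, from 234800 expected counts, and 6160.03 TPM in library 1, from 83946 expected counts. It ranked 5 among 21461 nuclear protein-coding genes in library 2 and 3 in library 1. The direction depended on the scale: expressed relative to the TPM of nuclear protein-coding genes, Trf stood at 14511 in library 2 and 16395 in library 1, so library 2 was then the lower. The effective length given for the gene was 1422 bases in library 2 and 598 bases in library 1, and the transcripts to which its reads were assigned differed too, as described below. The Trf transcripts annotated as protein-coding with both a start and a stop codon had 680 TPM in library 1, against 765 TPM for Fth1. In library 2 these Trf transcripts had 6225 TPM, against 2147 TPM for Fth1. The margin in library 1 thus depended on the short transcripts.

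Its receptor was a low-abundance mRNA. Tfrc (ENSMUSG00000022797.11, chr16:32608920-32632794, plus strand) had 6.83 TPM in library 2, from 373 counts, and 10.5 TPM in library 1, from 923 counts. With the counts as the base, the 95% exact Poisson intervals were 336 to 413 in library 2 and 864 to 985 in library 1. The authors' own interval of TPM, whose level is not stated, ran from 6.17 to 17.7 in library 2 and from 9.79 to 18.4 in library 1, so these overlapped. For the other 9 carriers these intervals did not overlap, which was also so for 67.2% of the 12728 genes with 20 counts or more over both libraries. The ratio of Trf to Tfrc TPM was 1566 in library 2 and 586 in library 1.

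Both iron importers were modest in level, and Slc39a14 exceeded Slc11a2 in each library. Slc39a14 (ENSMUSG00000022094.11, chr14:70303469-70351425, minus strand), also known as ZIP14, takes up iron not bound to transferrin into hepatocytes. It had 51.1 TPM in library 2, from 2845 counts, and 17.3 TPM in library 1, from 1808 counts. Slc11a2 (ENSMUSG00000023030.12, chr15:100387898-100425072, minus strand), also known as DMT1, carries ferrous iron across cell and endosome membranes. It had 11.8 TPM in library 2, from 526 counts (95% exact Poisson interval 482 to 573), and 3.70 TPM in library 1, from 271 counts (240 to 305). The ratio of Slc39a14 to Slc11a2 TPM was 4.34 in library 2 and 4.68 in library 1, far closer between the libraries than either level.

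The ferritin chains differed most in how they behaved between the libraries. Fth1 (ENSMUSG00000024661.6, chr19:9980598-9985098, plus strand) encodes the heavy chain, which oxidises iron on its way into the shell. It had 2147 TPM in library 2, from 22478 counts, and 765 TPM in library 1, from 11906 counts. Ftl1 (ENSMUSG00000050708.10, chr7:45457944-45459884, minus strand) encodes the light chain, which favours mineral formation inside the shell. It had 2993 TPM in library 2, from 35992 counts, and 33.6 TPM in library 1, from 582 counts. Its TPM ratio, library 2 over library 1, was 89.0. Its rank among nuclear protein-coding genes was 30 in library 2 and 1383 in library 1, whereas that of Fth1 was 44 in library 2 and 75 in library 1. The ratio of heavy to light chain TPM was therefore 0.717 in library 2 and 22.7 in library 1, and the libraries disagreed on which chain was the more abundant. On the log2 scale the ratio averaged 2.01 ± 3.53 (SD, n = 2 libraries), an SD larger than the mean.

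Ferroportin, the sole known cellular iron exporter in mammals, and ceruloplasmin were the carriers closest between the libraries in TPM. Slc40a1 (ENSMUSG00000025993.6, chr1:45908068-45926523, minus strand) had 71.9 TPM in library 2, from 3467 counts, and 85.4 TPM in library 1, from 6156 counts. Cp (ENSMUSG00000003617.12, chr3:19957054-20009145, plus strand) encodes a copper-holding plasma ferroxidase that oxidises exported iron for loading onto transferrin. It had 675 TPM in library 2, from 23018 counts, and 821 TPM in library 1, from 46055 counts. Both genes were lower in library 2 by TPM, by counts and after rescaling to nuclear protein-coding genes, where Cp stood at 915 in library 2 and 2184 in library 1. These genes and Tfrc were the only carriers with a lower TPM in library 2.

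Both scavengers were much higher in library 2. Hp (ENSMUSG00000031722.9, chr8:109575128-109579172, minus strand) had 1512 TPM in library 2, from 26956 counts, and 45.5 TPM in library 1, from 1203 counts, a TPM ratio of 33.2 for library 2 over library 1. Hpx (ENSMUSG00000030895.8, chr7:105591613-105600137, minus strand) had 2524 TPM in library 2, from 50255 counts, and 307 TPM in library 1, from 9073 counts, a TPM ratio of 8.21. Hpx exceeded Hp in both libraries, by 1.67 times in library 2 and 6.76 times in library 1.

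With the libraries averaged, the order was Trf at 8429 ± 3209 TPM, Ftl1 at 1513 ± 2093, Fth1 at 1456 ± 977, Hpx at 1416 ± 1567, Hp at 779 ± 1037 and Cp at 748 ± 103 (SD, n = 2 libraries each). Slc40a1 followed at 78.7 ± 9.57 TPM, Slc39a14 at 34.2 ± 23.9, Tfrc at 8.67 ± 2.60 and Slc11a2 at 7.74 ± 5.71. The means of neighbours within Ftl1, Fth1, Hpx, Hp and Cp lay closer together than this spread, as did those of Tfrc and Slc11a2. The spread is the gap between libraries and does not measure the order within a library. Hpx was above Hp in both libraries, while the order of the other neighbours named here changed between them. By gene-level TPM Trf stood above all others in each library.

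Folds were then computed from counts, as library 2 over library 1 on the log2 scale, after scaling with the trimmed mean of M values (TMM), and a fold was counted when it reached 1 in size. On this scale 4 of the 10 genes were higher and 3 were lower in library 2. Over both libraries 12728 genes had 20 counts or more, and of these 33.0% were higher and 24.0% were lower by the same rule. The higher ones were Ftl1 at 5.63, Hp at 4.16, Hpx at 2.15 and Trf at 1.16. The lower ones were Tfrc at -1.63, Cp at -1.32 and Slc40a1 at -1.15. Slc11a2 at 0.63, Fth1 at 0.59 and Slc39a14 at 0.33 did not reach the limit. In linear terms Ftl1 was 49.4 times and Hp 17.9 times higher in library 2, whereas Tfrc was 3.09 times lower. The 95% exact counting intervals on the log2 scale were 5.51 to 5.75 for Ftl1, 4.08 to 4.25 for Hp, -1.81 to -1.45 for Tfrc and 0.42 to 0.85 for Slc11a2, the widest being those of Tfrc and Slc11a2. They cover counting error and not the spread between library preparations. The median over the 10 genes was 0.61, against 0.04 over all genes tested.

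The counts of higher and lower genes moved with the scaling. With library totals as the scale, 6 were higher and 1, Tfrc, was lower, against 42.1% and 7.73% of all genes, and the median of all genes shifted by 0.574. With the ratio of deposited TPM, 6 were higher and none lower, against 46.4% and 2.65% of all genes, a shift of 0.801. The median over the 10 genes was 1.19 with totals, against 0.62 over all genes, and 1.52 with the TPM ratio, against 0.84. Under TMM, totals and the TPM ratio the same 7 genes had a positive fold and the same 3 a negative one, while relative to nuclear protein-coding TPM Trf turned to -0.18. Ftl1, Hp and Hpx were past the limit under each of these scalings.

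**Figure D2:**
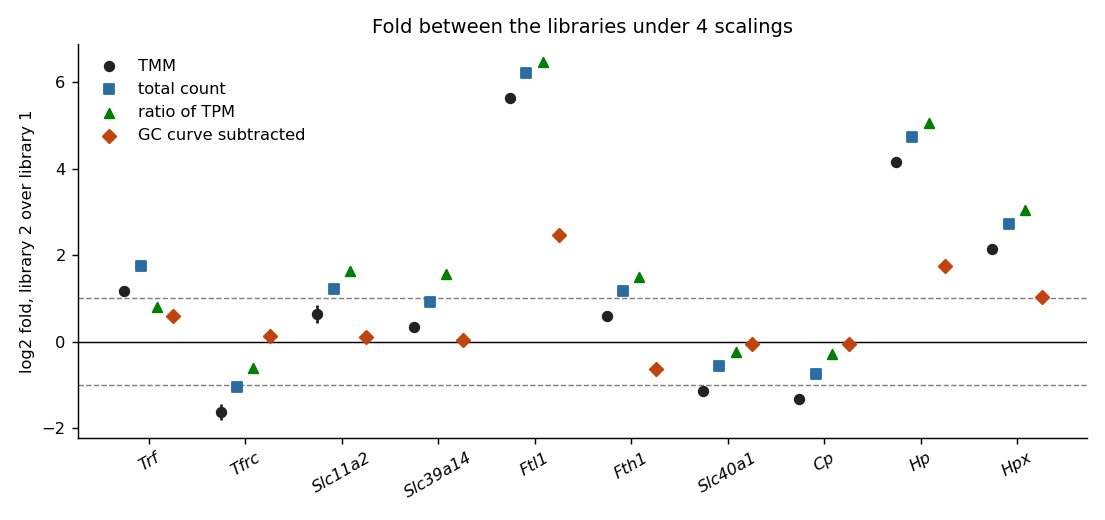
Log2 fold of each carrier, library 2 over library 1, under 4 scalings, with the 95% counting interval drawn on the TMM value and dashed lines at 1 and -1. Ftl1 at 5.63 and Hp at 4.16 stand apart under TMM, and the fold of every gene is nearer to 0 once a curve on GC content is subtracted, apart from Fth1, which lies at -0.64.

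The base composition of the transcripts moved with these folds. GC content was 58.1% for Ftl1, 56.2% for Hp, 53.4% for Fth1, 53.1% for Hpx, 51.3% for Trf, 51.1% for Slc11a2 and 50.4% for Slc39a14, and these 7 genes had positive folds. It was 43.6% for Slc40a1, 42.4% for Cp and 38.2% for Tfrc, the 3 genes with negative folds. Over all tested genes the median fold was -1.70 below 40% GC, -1.22 from 40 to 45%, -0.43 from 45 to 50%, 0.90 from 50 to 55%, 2.70 from 55 to 60% and 4.17 above. Within its class of 2276 genes, 54 genes had a larger fold than Ftl1 and 281 a larger one than Hp. After a smooth curve on GC content was subtracted, 3 genes were higher and none lower, against 8.58% and 8.09% of 12046 genes with a GC value. These were Ftl1 at 2.47, Hp at 1.76 and Hpx at 1.02, and the median over the 10 genes was 0.12, against -0.02 over all genes. On this scale Slc40a1 at -0.05, Cp at -0.06, Slc39a14 at 0.03 and Slc11a2 at 0.11 were close to 0. Tfrc turned to 0.13 and Fth1 to -0.64, so the sign of both depended on this step. The part of GC content in each gene's fold was not tested further.

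**Figure D3:**
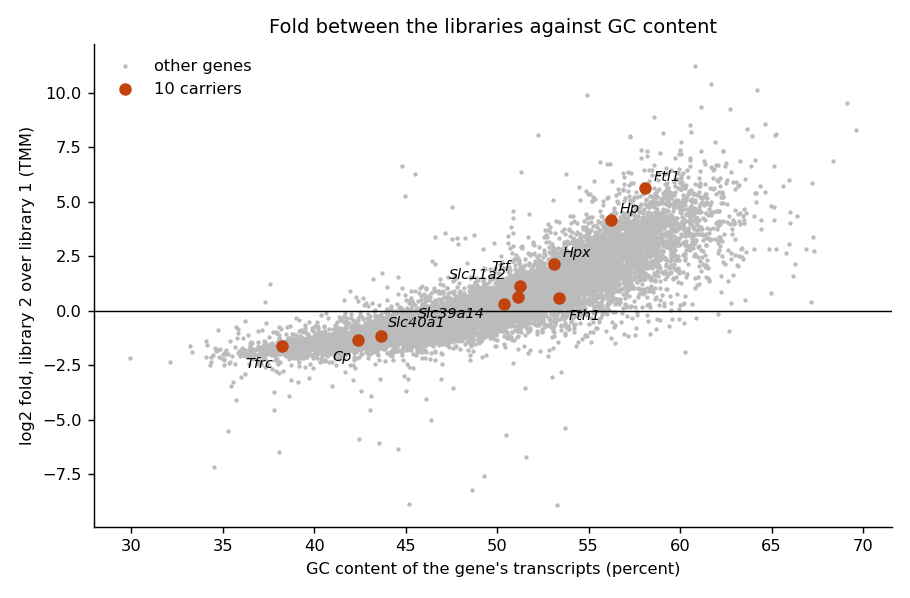
Log2 fold under TMM, library 2 over library 1, against the GC content of each gene's transcripts in percent, with the 10 carriers in red over all other tested genes in grey. The carriers run from Tfrc at 38.2% GC and -1.63 to Ftl1 at 58.1% GC and 5.63, and Fth1 lies below Hpx at nearly the same GC content.

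The transcript tables split each gene over its annotated transcripts, with the share of the gene's TPM given as IsoPct in percent. Fth1, Hp and Hpx had 1 transcript each, and the other 7 genes had several. For all 7 of these the leading transcript was the same in both libraries. Of the 68 transcripts, 22 reached an IsoPct of 10 in either library and 17 had no count in both. A transcript is called full coding here when M21 annotates it as protein-coding with both a start and a stop codon.

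Transferrin showed the largest difference in transcript use. The full-coding transcripts Trf-201 and Trf-203 together had 6225 TPM in library 2 and 680 TPM in library 1. That was 58.2% of the gene's TPM and 92.6% of its counts in library 2, against 11.0% of TPM and 42.2% of counts in library 1. The short transcripts Trf-207, Trf-208 and Trf-209, which lie within positions 1093 to 2161 of the 2339-base Trf-203 mRNA, had 4462 TPM in library 2 and 5383 TPM in library 1. They accounted for 41.7% of TPM and 7.34% of counts in library 2, and 87.4% of TPM and 56.6% of counts in library 1. Thus the full-coding transcripts were 9.15 times higher in library 2, while the short ones were at 0.829 of their library 1 level.

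Among these, Trf-209, a 433-base transcript annotated as a retained intron, had an IsoPct of 41.3 in library 2 and 56.7 in library 1. Trf-208 had 0.15 in library 2, from 158 counts, and 26.2 in library 1, from 23992 counts. Trf-201 had 28.3 in library 2 and 6.18 in library 1, and Trf-203 had 29.9 in library 2 and 4.86 in library 1. The sequence of Trf-203 upstream of position 1093 has a GC content of 54.9%, and positions 1093 to 2161 have 50.3%. The background was 3460 nuclear protein-coding genes with several transcripts, including a full-coding one, and a mean TPM of at least 10. All of them had TPM in both libraries. Their median full-coding share was 93.4% in library 2 and 91.5% in library 1. The quartiles of the difference, library 2 minus library 1, were -1.34 and 16.0 points. For Trf the share was 47.1 points higher in library 2, and 324 of those genes had a difference at least as large. Reads that fall in sequence shared by these transcripts are assigned by an estimate, so the split is less firm than the gene's total.

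**Figure D4:**
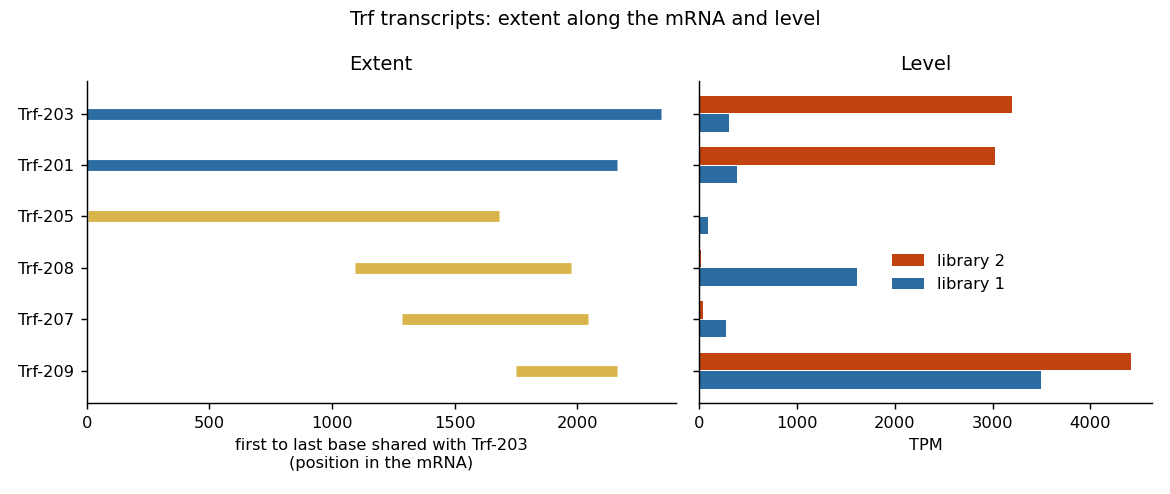
Left, the extent of 6 Trf transcripts along the 2339-base Trf-203 mRNA, from the first to the last shared base, with full-coding transcripts in blue and others in yellow (Trf-205 skips part of its extent). Right, their TPM with library 2 above library 1: Trf-203 and Trf-201 are at 3199 and 3025 TPM in library 2 against 299 and 381 TPM in library 1, and Trf-208 is at 15.8 TPM in library 2 against 1614 TPM in library 1.

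The ferritin light chain also changed in its split, at a low count in library 1. Ftl1-201, the transcript with the hairpin, had an IsoPct of 98.8 in library 2 and 64.2 in library 1. Its level was 2958 TPM in library 2 and 21.6 TPM in library 1. A second transcript, ENSMUST00000135869.1, had 0.72 in library 2, or 21.5 TPM, and 30.4 in library 1, or 10.2 TPM. Its level was thus far closer between the libraries than that of Ftl1-201, but it rested on 251 counts in library 2 and 177 in library 1. It has no M21 sequence and its type is not given here.

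Both main Tfrc transcripts carried all 4 hairpins. Tfrc-204, annotated as a retained intron and covering positions 1686 to 4886 of the 4890-base Tfrc-201, had an IsoPct of 65.9 in library 2 and 52.9 in library 1. The full-length Tfrc-201 had 26.4 in library 2, from 131 counts, and 44.1 in library 1, from 497 counts. With IsoPct from posterior mean TPM, Tfrc-204 had 41 in library 2 and 41.97 in library 1. On that measure Tfrc-201 had 16.05 in library 2 and 32.93 in library 1. Tfrc-203, a 166-base transcript with no count and no hairpin, then had 33.98 in library 2 and 19.63 in library 1. The difference in Tfrc-204 between the libraries thus depended on the measure. Slc40a1 was nearly a single transcript, Slc40a1-201, with 95.2 in library 2 and 96.7 in library 1.

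Slc11a2 is known to end in alternative last exons, of which 1 holds the hairpin. Slc11a2-205, the hairpin form, had an IsoPct of 54.3 in library 2, or 6.39 TPM, and 67.8 in library 1, or 2.51 TPM. Slc11a2-201, which was without the motif, had 15.7 in library 2, or 1.84 TPM, and 7.59 in library 1, or 0.28 TPM. The hairpin form was thus the higher in both libraries. Slc11a2-206, a retained intron, had 19.4 in library 2 and 22.0 in library 1, and Slc11a2-203 had 10.7 in library 2, from 10.3 counts, and 2.69 in library 1, from 1.21 counts.

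Slc39a14-202 had an IsoPct of 63.6 in library 2 and 89.0 in library 1. Slc39a14-210 had 15.2 in library 2, from 227 counts, and was listed at 0 in library 1. Ceruloplasmin was spread over 16 transcripts, each with a count in at least 1 library. Cp-202 had an IsoPct of 38.8 in library 2 and 51.1 in library 1, and the shorter Cp-213 had 28.3 in library 2 and 26.8 in library 1. Cp-216, a retained intron, had 15.2 in library 2 and 10.1 in library 1, and Cp-203 had 13.5 in library 2 and 7.32 in library 1.

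**Figure D5:**
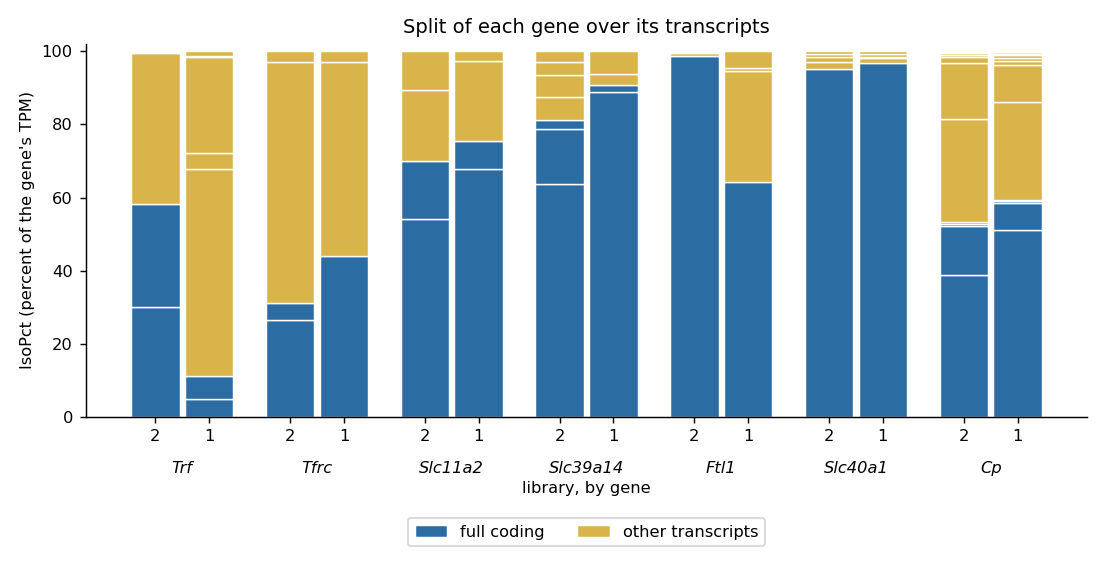
Stacked IsoPct (percent of the gene's TPM) of the 7 carriers with several transcripts, with library 2 to the left of library 1 for each gene, full-coding transcripts in blue and all others in yellow. The blue part of Trf is 58.2% in library 2 and 11.0% in library 1, and that of Ftl1 is 98.8% in library 2 and 64.2% in library 1.

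Transcripts in which the hairpin was found had 25.0% of the 10 genes' TPM in library 2, or 5182 TPM, and 10.7% in library 1, or 881 TPM. Within each gene the share on hairpin transcripts was 100% in both libraries for Fth1. For Ftl1 it was at least 98.8% in library 2 and at least 64.2% in library 1. Its other transcripts have no M21 sequence and were not searched. For Slc40a1 it was 97.9% in library 2 and 99.0% in library 1, and for Tfrc 92.4% in library 2 and 97.0% in library 1. The Tfrc shares were lower with IsoPct from posterior mean TPM. On that measure Tfrc-203, which is without the hairpin, had 33.98 in library 2 and 19.63 in library 1. The Fth1 transcript is 866 bases long in the deposited table and 929 in M21.

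Genes with a transcript that shares at least 50% of its 25-base words with a carrier are called copies here, and they held few of the reads. Ftl1-ps1, on chromosome 13, shares 86.0% of its 25-base words with Ftl1 and had 16.7 TPM in library 2, from 190 counts, and 0.70 TPM in library 1, from 11.8 counts. The ferritin pseudogenes Gm15590 and Ftl2-ps had no count in either library. Gm20425, which overlaps Trf on chromosome 9 and shares 68.6% of its words, had 1.11 TPM in library 2 and 1.32 TPM in library 1. The authors' posterior SD of the count, which reflects how far reads are shared between genes, was 0 in both libraries for 8 of the 10 carriers. For Trf it was 19.5 counts in library 2 and 19.0 in library 1, and for Ftl1 it was 9.36 in library 2 and 4.40 in library 1.

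The other genes of iron and heme handling came from a list of 41. Of the 34 that had 20 counts or more over both libraries, 12 were higher and 8 lower in library 2 under TMM, and the median fold was -0.04, against 0.04 over all genes. These counts, and those of the groups below, stand against 33.0% higher and 24.0% lower among all genes. With library totals as the scale, 13 of the 34 were higher and 1, Ireb2, was lower, against 42.1% and 7.73% of all genes. The other lower calls of each group were thus lost. Among 13 genes of uptake and reduction, 8 could be scored, with 3 higher and 1 lower. Tfr2, the hepatocyte's iron-sensing second transferrin receptor, had 135 TPM in library 2 and 11.5 TPM in library 1, a log2 fold of 2.67. Its GC content was 57.7%, and the median fold over all tested genes was 2.70 from 55 to 60% GC. The part of GC content in this fold was not tested. The level of Tfr2 lay above the authors' interval for Tfrc in library 2 and within it in library 1. Each interval comes from 1 library and does not cover differences between libraries. GC content was 38.2% for Tfrc. Timd2, a receptor for heavy-chain ferritin, had 71.6 TPM in library 2 and 63.6 TPM in library 1, but a log2 fold of -0.92 under TMM. The reductase Steap4 had 40.3 TPM in library 2 and 39.7 TPM in library 1, a fold of -0.86. The importer Slc39a8 had 13.7 TPM in library 2 and 14.1 TPM in library 1, a fold of -0.93. Timd2, Steap4 and Slc39a8 did not reach the limit.

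Lcn2, a siderophore-binding protein, had 25.0 TPM in library 2 and 4.08 TPM in library 1, and Steap3, the endosomal ferrireductase of the transferrin cycle, had 14.2 TPM in library 2 and 3.25 TPM in library 1. Both were higher, with a log2 fold of 1.72 for Lcn2 and 1.26 for Steap3. GC content was 54.0% for Lcn2 and 55.3% for Steap3. The median fold over all tested genes was 0.90 from 50 to 55% GC and 2.70 from 55 to 60%. The part of GC content in these folds was not tested. Ltf, Meltf and Scara5 were at 0.07 TPM or less in both libraries.

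Of 8 genes of storage, chaperoning and release, 6 could be scored, with 1 higher and 1 lower. The iron chaperones Pcbp1 and Pcbp2 had 82.7 and 72.7 TPM in library 2, against 26.4 and 56.0 TPM in library 1. Their log2 folds under TMM were 0.76 for Pcbp1 and -0.50 for Pcbp2. Ncoa4, the receptor that takes ferritin to lysosomes, had 62.3 TPM in library 2 and 61.2 TPM in library 1, but a fold of -0.89. The mitochondrial importers Slc25a28 and Slc25a37 had 13.6 and 11.2 TPM in library 2, against 0.63 and 9.87 TPM in library 1. Only Slc25a28 was past the limit, at 3.52, with Slc25a37 at -0.63. The ferroxidase Heph, lower at -1.33, had 0.42 TPM in library 2 and 0.57 TPM in library 1. GC content was 60.9% for Slc25a28 and 45.6% for Heph. The median fold over all tested genes was 4.17 at 60% GC and over and -0.43 from 45 to 50%. The part of GC content in these folds was not tested. Hephl1 was at 0.01 TPM in library 2 and 0 in library 1, and mitochondrial ferritin, Ftmt, had no count in either library.

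All 11 genes of heme and hemoglobin transport could be scored, with 6 higher and 2 lower and a median fold of 1.60, against 33.0% higher, 24.0% lower and a median of 0.04 over all genes. With library totals, 6 were higher and none lower, against 42.1% and 7.73% of all genes. GC content was 51.0 to 58.2% for the 6 higher genes, 41.0 and 44.9% for the 2 lower ones and 43.2 to 50.7% for the rest. Over all tested genes the median fold was -1.22 from 40 to 45% GC and -0.43 from 45 to 50%. It was 0.90 from 50 to 55% and 2.70 from 55 to 60%. The part of GC content in these folds was not tested. Lrp1, the receptor that takes up the heme-hemopexin complex, had 230 TPM in library 2 and 11.7 TPM in library 1, a log2 fold of 4.51. Ambp, whose product alpha-1-microglobulin binds heme, had 1843 TPM in library 2 and 219 TPM in library 1, a log2 fold of 2.18. Hebp1, a heme-binding protein, had 296 TPM in library 2 and 52.5 TPM in library 1, and the heme-binding membrane protein Pgrmc1 had 945 TPM in library 2 and 1392 TPM in library 1. Their log2 folds were 1.60 for Hebp1 and -1.45 for Pgrmc1. Abcb6 was higher at 2.10, and Abcg2 did not reach the limit at -0.99. Cd163, the macrophage receptor for the haptoglobin-hemoglobin complex, had 2.99 TPM in library 2 and 1.97 TPM in library 1. The heme exporter Flvcr1 had 1.78 TPM in library 2 and 2.80 TPM in library 1, and Flvcr2 had 1.32 TPM in library 2 and 0.54 TPM in library 1.

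The iron regulatory proteins and the genes that control them numbered 6, of which none was higher and 4 were lower, against 33.0% and 24.0% of all genes. Aco1, the iron-sulfur protein that doubles as iron regulatory protein 1, had 93.4 TPM in library 2 and 41.9 TPM in library 1, a fold of 0.27. Ireb2, or iron regulatory protein 2, had 20.4 TPM in library 2 and 39.1 TPM in library 1, a fold of -1.82. The ubiquitin ligase genes Fbxl5, Skp1a and Cul1, which govern Ireb2 turnover, were at -1.10, -1.34 and -1.05, and Ciao1, which serves iron-sulfur cluster delivery, was at 0.21. With library totals as the scale only Ireb2 stayed past the limit, at -1.24. GC content was below 40% for Ireb2, from 40 to 45% for Fbxl5, Skp1a and Cul1, and from 50 to 55% for Aco1 and Ciao1. Under TMM the median fold over all tested genes was -1.70 below 40% GC and -1.22 from 40 to 45%. It was 0.90 from 50 to 55%. The part of GC content in the folds of these 6 genes was not tested. Among other mRNAs known for an iron responsive element, Alas2, which encodes the erythroid first enzyme of heme synthesis, was higher at 1.51, and Epas1, a hypoxia-responsive transcription factor, did not reach the limit at 0.23. GC content was 52.6% for Alas2 and 52.5% for Epas1, and its part in their folds was not tested.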

How the data were processed

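Members, pathway lists and marker lists were chosen with earlier results of these data known. Per the file headers, the authors quantified each library on mm10 with annotation M4; tool, aligner and strandedness were not given in the sources used here. The authors' expected counts (estimated, not normalised), TPM, FPKM and IsoPct, a percent of the gene's TPM, were used as deposited. The deposited interval bounds of TPM are treated as a score, since their level is not stated, and they lie around the deposited posterior mean TPM. Symbols, coordinates and sequences came from GENCODE M21, which holds 64 of the 68 transcripts. Gene GC content is the TPM-weighted mean over transcripts whose lengths agreed within 10%.

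Depths were 19525500 counts in library 2 and 23309905 in library 1. Both libraries form 1 group. Rounded counts of genes reaching 20 over both libraries entered, and TMM factors (1.22 for library 2, 0.818 for library 1) came from edgeR 4.0.16 in R 4.3.3. Folds used a prior count of 0.5, and no test was made, because 1 library on each side leaves no replicates. The replicates are technical. The GC curve was a loess fit with a span of 0.3. The fold step was tested on simulated libraries that had no GC effect. That test could not check folds that move with GC content. Python 3.11.15 did the rest. Besides the 10 genes, the text names the up to 6 most and up to 3 least abundant genes of each list, the up to 3 most abundant copies, and transcripts with an IsoPct of at least 10. The Trf-207 and Trf-205 transcripts, and the marker genes named, were added after their values were seen. Alternatives were other scalings, count minimums, priors, posterior means, FPKM, looser hairpins and each library alone. Some genes of the lists are not reported here by name.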

Additional observations from a re-analysis of the deposited data

How the results depend on the processing

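The number of carriers higher in library 2 was 4 and ran from 3 to 6 over all alternatives. The number lower was 3, and became 1 with total-count scaling and 0 with the ratio of TPM, with the GC curve subtracted, and with a log2 fold of at least 2. The genes' share of TPM, 1.45% on average, became 2.50% of nuclear protein-coding TPM. With each library alone it ran from 0.825 to 2.07%, the share on hairpin transcripts from 10.7 to 25.0%, and the log2 ratio of Fth1 to Ftl1 from -0.48 to 4.51, a change of sign that rests on 1 library. Subtracting the GC curve turned Tfrc to 0.13 and Fth1 to -0.64. With IsoPct from posterior mean TPM, the mean over both libraries moved from 59.4 to 41.5 for Tfrc-204. It moved from 61.01 to 49.07 for Slc11a2-205 and from 95.96 to 93.26 for Slc40a1-201. Of the other settings of single folds, 47 stayed within the counting interval and 41 moved beyond it with their sign kept; the cause was not tested. Depth limits Slc11a2, Tfrc and the minor transcripts most. No paired analysis was possible because both libraries form 1 group.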
